A study of Homo sapiens with 27 samples.

Results

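EBC-1 is a human non-small cell lung cancer cell line that the study chose because its growth depends on MET, the receptor tyrosine kinase that binds hepatocyte growth factor. The comparison described here set 3 EBC-1 arrays taken after 24 h in 1 uM SGX-523, a selective inhibitor of the MET kinase, against 3 EBC-1 arrays treated with DMSO, the solvent. The 6 arrays were chosen by their titles out of 27 in the series, and the log2 difference between the groups was computed for each of 12386 genes. The other 21 arrays entered the choice of probe sets and the pooled spread behind every p-value. Their values are given only where another line or time is named. They are 3 EBC-1 arrays at 48 h in the same dose, and 3 DMSO, 3 24 h and 3 48 h arrays each of MKN-45 and HCC827. MKN-45 is a gastric cancer line also described as dependent on MET. HCC827 is a lung cancer line with active MET that does not depend on it and served as the negative control. The labels name no genetic change in any group. Each line had 1 DMSO group for both times, so the 24 h and 48 h differences from DMSO share their controls, and the time at which DMSO cells were harvested is not stated in the labels. The replicates are labelled as biological, with nothing further on whether they were separate cultures, so the p-values measure the spread between these samples.

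Active MET signals through RAS and ERK, through PI3K and AKT, and through STAT3. ERK activity keeps the messenger RNAs of immediate early transcription factors, of the ETV1, ETV4 and ETV5 group and of MYC high, whereas AKT phosphorylates FOXO transcription factors and holds them out of the nucleus. In tumour cells that depend on one receptor kinase, these pathways set growth factor and cytokine output, the receptors at the surface and the supply of nucleotides and amino acids for growth. The genes below are therefore ordered as transcription factors, secreted proteins, surface proteins and metabolic enzymes.

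The values are the authors' log2 signals from Affymetrix 3' expression arrays, in which 1 unit is a 2-fold difference, and a level is never compared between genes. Any 2 arrays of a group correlated at r of at least 0.996 over all probe sets, and arrays of different groups at no more than 0.965. Some measures of the arrays moved with treatment. The median of the 42 control probe sets for RNA added during labelling and hybridization read 0.32 higher on the SGX-523 arrays than on the DMSO arrays. The array medians (5.02 to 5.09) differed by 0.028. Taken apart, the median of the hybridization controls read 0.36 higher and that of the labelling (poly-A) controls 0.47 higher. The levelling used below rests on the median of all 42, so the labelling controls alone would give a larger shift. The 3' to 5' difference of ACTB, a measure of RNA integrity and labelling, was 3.76 ± 0.014 (SD, n = 3) after SGX-523 and 3.36 ± 0.14 in DMSO, whereas that of GAPDH was 0.39 ± 0.0046 and 0.36 ± 0.019. One array of another group, HCC827 at 24 h replicate 3, departed from its fitted values more than all others and widened the pooled spread, and the part of these factors in the results was not tested beyond the alternatives given. As a check of the labelled cell type, 7 of 10 epithelial markers lay above the array median in DMSO, with EPCAM at 11.77 and KRT18 at 13.62. CDH1, which encodes E-cadherin, read 3.20 in EBC-1 DMSO, 11.77 in MKN-45 and 12.08 in HCC827, and ESRP1 was also below the array median in EBC-1. Of 9 squamous markers 2 were above the median, and of 8 airway and lung adenocarcinoma markers 4 were, at 5.50 to 5.86 in DMSO. For comparison, 10910 of 18132 genes had a probe set reaching the array median on at least 3 of the 6 EBC-1 arrays. Marker counts near that share do not tell a cell type. Of the markers of other cells, 4 of 10 fibroblast, 2 of 9 leukocyte and 2 of 8 endothelial genes lay above the array median in DMSO. The pan-leukocyte gene PTPRC read 2.60, while the monocyte and lysosomal genes CD14 and CD68 read 7.11 and 5.63. The fibroblast collagens COL1A1 and COL3A1 read 3.98 and 2.69, COL1A2 read 5.15 in DMSO and 2.66 after SGX-523, and the smooth muscle actin ACTA2 read 6.36 and 7.34. The summed level of the 10 fibroblast markers lay between 10.27 and 10.39 in DMSO and between 11.85 and 11.96 after SGX-523, with LUM, which encodes the matrix proteoglycan lumican, contributing 10.04 and 11.81.

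After 24 h, 7336 of the 12386 genes (59.2%) passed limma's test at a Benjamini-Hochberg adjusted p under 0.05, 3861 of them higher (31.2%) and 3475 lower (28.1%). With most genes past the test, the size of a difference says more than the call, so gene groups are described by members that passed and also differed at least 2-fold. Over all genes 955 rose (7.71%) and 1011 fell (8.16%) by that much, and the median difference was 0.036. The counts of every gene group below are to be read against these 2 shares. Levelled on the added control RNA instead, every difference is about 0.32 lower, the median becomes -0.28, and the 2-fold counts become 525 higher and 1612 lower. Positive differences of single genes smaller than that shift are therefore not read as rises, and the counts under this levelling are given for gene groups whose balance turned or came near to even. Of the 2-fold changes, 209 rises and 180 falls had their lower side beneath the highest array median of 5.09, where the files give no call of detection. RRM2, ETV5, E2F7, FOXN3 and ABCA1 are among them, and the sizes and ranks of such differences are those measured, with the dim side not shown to be above background. All 3 treated arrays lay on one side of all 3 DMSO arrays for 8727 genes (70.5%). Genes named for the largest changes over all genes or in a class were required to separate in this way. Their separation is therefore part of how they were chosen and adds no support. The median standard error (SE) of a difference was 0.11.

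**Figure D1:**
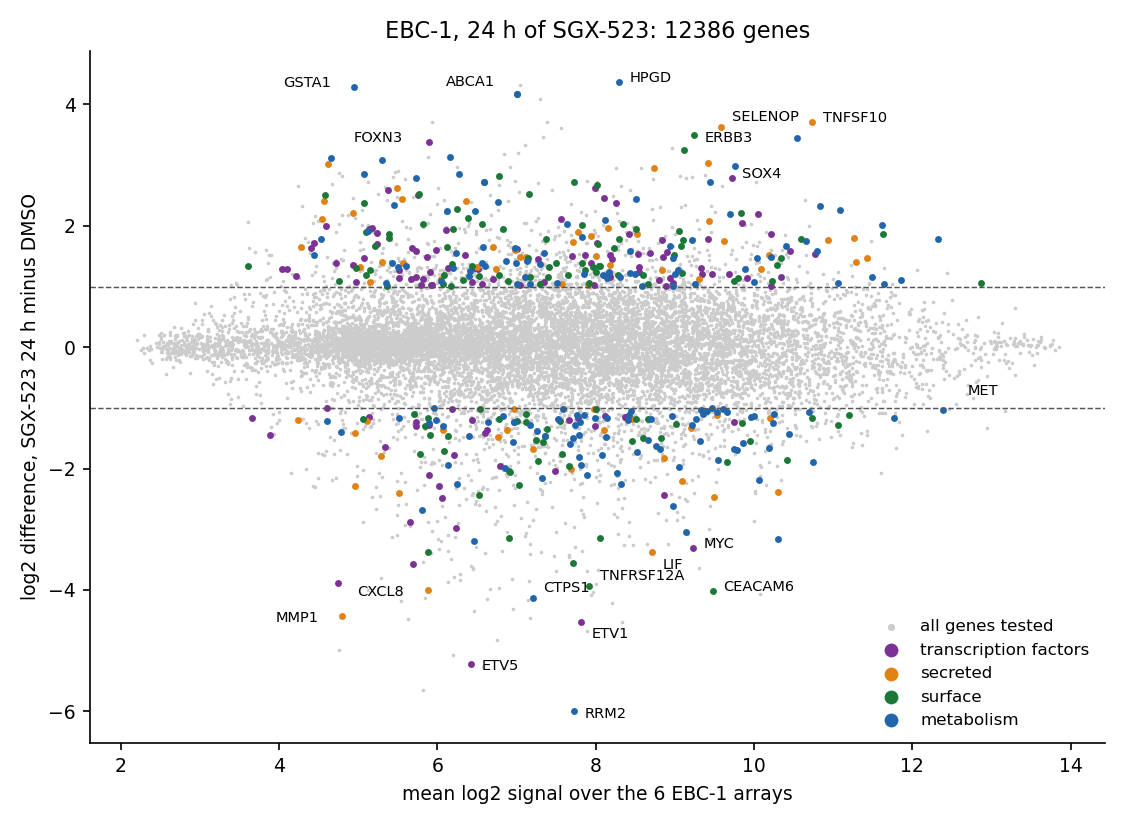
Each point is 1 of the 12386 genes, plotted by its mean log2 signal over the 6 EBC-1 arrays (x axis) and its log2 difference, SGX-523 24 h minus DMSO (y axis). Grey points are all genes, coloured points the members of the 4 classes that passed limma's test and differed at least 2-fold, dashed lines mark 2-fold, and the labelled genes run from RRM2 at -6.0 to HPGD at 4.37.

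Of 733 transcription factor genes tested, 81 rose at least 2-fold (11.1%, against 7.71% of all genes) and 32 fell (4.37%, against 8.16%), or 45 and 50 under the control RNA levelling. The deepest falls were in ETV5, ETV1, MYBL1, E2F7 and MYC, and FOXN3, SOX4, SATB1, CDX2 and the MYC antagonists MXD4 and MXI1 rose.

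ETV1, ETV4 and ETV5 are the PEA3 group of ETS factors, which are transcribed under ERK signalling. ETV5 read 9.01, 9.08 and 9.0 on the DMSO arrays and 3.65, 3.90 and 3.90 on the SGX-523 arrays, a difference of -5.22 ± 0.17 (± SE, 3 against 3 arrays; limma adjusted p = 1.47e-18). ETV1 read 9.98, 10.13 and 10.10 in DMSO and 5.77, 5.44 and 5.43 after SGX-523, a fall of 4.52. The groups stood far apart for both genes, and all 8 ETV1 probe sets gave a fall. ETV4 changed less, from 6.19, 6.02 and 6.28 to 4.68, 4.31 and 4.54 (-1.65 ± 0.17). Among the 19 ETS factors tested, 3 fell and 2 rose at least 2-fold. The risers were ELF3, an epithelial ETS factor (1.58), and ETS1 (1.05).

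The immediate early factors divided by gene. EGR1, a zinc finger factor induced within minutes of growth factor signalling, read 10.08, 10.12 and 10.02 in DMSO and 7.69, 7.68 and 7.56 after SGX-523. FOSL1, the FOS family member kept up by sustained ERK activity, went from 6.96, 6.98 and 6.90 to 5.02, 4.83 and 4.68. All 3 treated arrays lay below all 3 DMSO arrays for both, which for EGR1 was a condition of naming it. The differences were -2.43 ± 0.15 for EGR1 and -2.10 ± 0.14 for FOSL1. Its relative FOSL2 moved the other way, from 7.07, 6.97 and 7.18 to 9.34, 9.43 and 9.57 (2.37), and so did MAF (2.004). FOS itself measured -0.057 ± 0.23 (adjusted p = 0.862) and did not pass. Over the 29 AP-1, ATF, CREB and MAF factors 3 rose and 2 fell at least 2-fold, a balance that turned to 2 and 3 under the control RNA levelling. Among 22 KLF, SP and EGR factors 5 rose, including KLF9 (1.54), KLF11 (1.52) and KLF5 (1.30), a factor of gut and squamous epithelium, and 2 fell, a balance that likewise turned, to 2 and 3.

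MYC, the growth-promoting factor that binds DNA with MAX, stood at 10.91, 10.84 and 10.91 in DMSO and 7.48, 7.65 and 7.59 after SGX-523. The difference was -3.31 ± 0.078 (limma adjusted p = 4.34e-21), with no overlap, which was a condition of naming the gene. Its antagonists, which compete for MAX and repress the same kind of sites, rose: MXD4 went from 6.56, 6.42 and 6.53 to 8.70, 8.48 and 8.64 (2.11) and MXI1 from 8.47, 8.57 and 8.53 to 10.38, 10.19 and 10.36 (1.78). MXD1 (1.46) and the glucose-sensing MLXIP (1.57) rose as well, so that of 13 members of the network 5 rose and 1 fell at least 2-fold, and the same counts held under the control RNA levelling. The median difference of the network was 0.40, against 0.036 over all genes.

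Of 20 E2F, MYB and pocket protein genes, which time the cell cycle, 7 fell and 2 rose at least 2-fold, and their median was -0.65. E2F7, a repressive E2F expressed in S phase, read 7.31, 7.53 and 7.60 in DMSO and 3.83, 3.97 and 3.92 after SGX-523, a fall of 3.57, although the other kept probe set changed by 0.011 only. MYBL1 went from 6.53, 6.68 and 6.85 to 2.91, 2.64 and 2.86, and FOXM1, the factor of mitotic genes, from 7.39, 7.23 and 7.29 to 4.87, 4.55 and 5.04. In both genes, as in E2F8 (-2.29), every treated array lay below every DMSO array, which for FOXM1 was a condition of naming it. The pocket protein RBL2, a partner of E2F repressors in resting cells, rose by 1.02, and MYB by 1.97, so MYB family members moved in opposite directions.

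Promoter sequences were compared because the deepest falls over all genes included many S phase and mitotic genes. RefSeq promoter sequence (GRCh38.p14) was matched by symbol for 10123 of the tested genes, and the 250 bases upstream of each start were searched on both strands. An E2F string (TTGGCGC or TTCCCGC) was present in 18.6% of the 827 genes that fell at least 2-fold and had a promoter, in 9.33% of the 772 that rose, in 12.7% of all genes tested and in 7.95% of all 27305 promoters. The CHR string TTTGAA, found upstream of mitotic genes, was in 15.5% of those that fell, 9.2% of those that rose, 8.53% of those tested and 13.6% of all promoters. The ETS string CCGGAAG was in 19.2% of those that fell, 8.68% of those that rose, 15.3% of those tested and 8.82% of all promoters. The FOXO string GTAAACA was in 2.18%, 4.02%, 1.98% and 2.98% in the same order. For the AP-1 string TGACTCA the order gave 2.54%, 2.46%, 2.77% and 4.16%, for the CRE string TGACGTC 5.2%, 4.4%, 4.93% and 3.29%, and for the E-box CACGTG 9.92%, 7.77%, 8.69% and 6.49%. None of these strings contains another, and a match is a description of letters, not of binding.
A few stretches of 50 bases are shown, 5' to 3' on the strand of the gene, with the match in capitals. They were picked after the values were seen, as deep falls with an E2F string and rises with a FOXO string. Other genes went against that choice. RRM2, CDC6, CDC45 and BUB1 were among the deepest falls without an E2F string, and HPGD and IRS2 rose with it. CDK1, a fall, also has the FOXO string.
CDK1: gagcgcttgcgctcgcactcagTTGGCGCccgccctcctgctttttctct
UHRF1: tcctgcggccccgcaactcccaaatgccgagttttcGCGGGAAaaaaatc
SPC25: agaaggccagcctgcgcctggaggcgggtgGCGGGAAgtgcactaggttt
E2F7: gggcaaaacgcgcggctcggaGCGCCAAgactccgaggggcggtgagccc
TXNIP: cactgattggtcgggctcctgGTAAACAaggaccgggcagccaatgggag
CDX2: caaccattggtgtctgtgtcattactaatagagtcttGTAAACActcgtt
They lie at chr10:60778281-60778330 on the plus strand (CDK1), chr19:4909451-4909500 plus (UHRF1), chr2:168890431-168890480 minus (SPC25), chr12:77065674-77065723 minus (E2F7), chr1:145996675-145996724 minus (TXNIP) and chr13:27969316-27969365 minus (CDX2), all upstream of the annotated start. The differences of these genes were -4.53, -5.07, -5.64, -3.57, 2.01 and 2.46.

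Forkhead factors other than FOXM1 rose in 6 of 24 and fell in 1 at least 2-fold, with a median of 0.10. FOXN3, a repressor linked to cell cycle arrest, read 4.40, 4.02 and 4.19 in DMSO and 7.53, 7.58 and 7.66 after SGX-523, a rise of 3.39. FOXO3 and FOXO1, the factors that AKT restrains, rose from 7.41, 7.52 and 7.56 to 9.30, 9.35 and 9.42 and by 1.45. Neither gene's groups overlapped, which for FOXO3 was a condition of naming it. The other risers were FOXP2 (2.59), FOXP1 (1.61) and FOXA1 (1.20), a pioneer factor of endodermal epithelium, and FOXL1 (-1.36) fell.

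Factors of cell identity changed individually and not as whole families. SOX4 read 8.34, 8.32 and 8.29 in DMSO and 11.09, 11.10 and 11.16 after SGX-523, a rise of 2.80 ± 0.038, and was the only SOX factor of 10 to rise 2-fold. Of 74 homeobox factors 4 rose and none fell at least 2-fold (all genes, 7.71% and 8.16%), or 2 and 1 under the control RNA levelling. The rises were thus no more frequent than over all genes. CDX2, the master homeobox factor of intestinal epithelium, went from 6.96, 7.01 and 6.66 to 9.28, 9.39 and 9.35, and SATB1, a chromatin organiser, from 6.69, 6.62 and 6.71 to 9.36, 9.29 and 9.26. Both were higher on every treated array, which was a condition of naming them. SNAI2, a repressor of epithelial genes, fell from 7.01, 7.03 and 7.22 to 4.07, 4.28 and 4.29, and GRHL3, a factor of barrier epithelium, from 7.66, 7.81 and 7.69 to 4.83, 4.996 and 4.39. CEBPD, an acute phase regulator, rose by 1.87.

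Nuclear receptors rose in 6 of 26 and fell in 1, with a median of 0.40 against 0.036 over all genes. PPARA, which drives fatty acid oxidation genes, read 7.11, 7.22 and 7.15 in DMSO and 8.85, 8.91 and 8.86 after SGX-523. NR1D2 (1.62), HNF4G (1.21) and the glucocorticoid receptor NR3C1 (1.20) rose too, and the orphan repressor NR0B2 fell by 2.05. PPARA had 4 kept probe sets, the lowest of which changed by 0.047. The ID proteins, which block bHLH factors, rose: ID3 from 9.02, 8.95 and 8.89 to 11.12, 11.06 and 11.25 and ID2 by 2.05. Among 39 bHLH and ID genes 3 rose, near the share among all genes (7.71%), and 1 fell (all genes, 8.16%). The counts became 3 and 4 under the control RNA levelling.

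Signal-dependent factors gave 6 rises and 3 falls of 52, which became 2 and 4 under the control RNA levelling. SMAD7, the inhibitor of TGF-beta signalling (1.63), the interferon factors IRF1 (1.50) and IRF9 (1.15), and STAT6 (1.22), which transmits IL-4 and IL-13 signals, rose, and the WNT and Hippo partners LEF1 (-1.41) and TEAD4 (-1.30) fell. SMAD7 read 3.58 in DMSO, below the array median, and 5.21 after SGX-523. Clock genes changed in both directions, with the period gene PER3 at 1.96 and the cryptochrome CRY1 at -1.17. Of 372 genes named ZNF, 35 rose and 6 fell at least 2-fold (all genes, 7.71% and 8.16%), or 16 and 13 under the control RNA levelling. ZNF204P (2.51) and ZNF33B (1.93) led the rises, and ZNF367 (-1.95) and ZNF239 (-1.77) the falls.

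**Figure D2:**
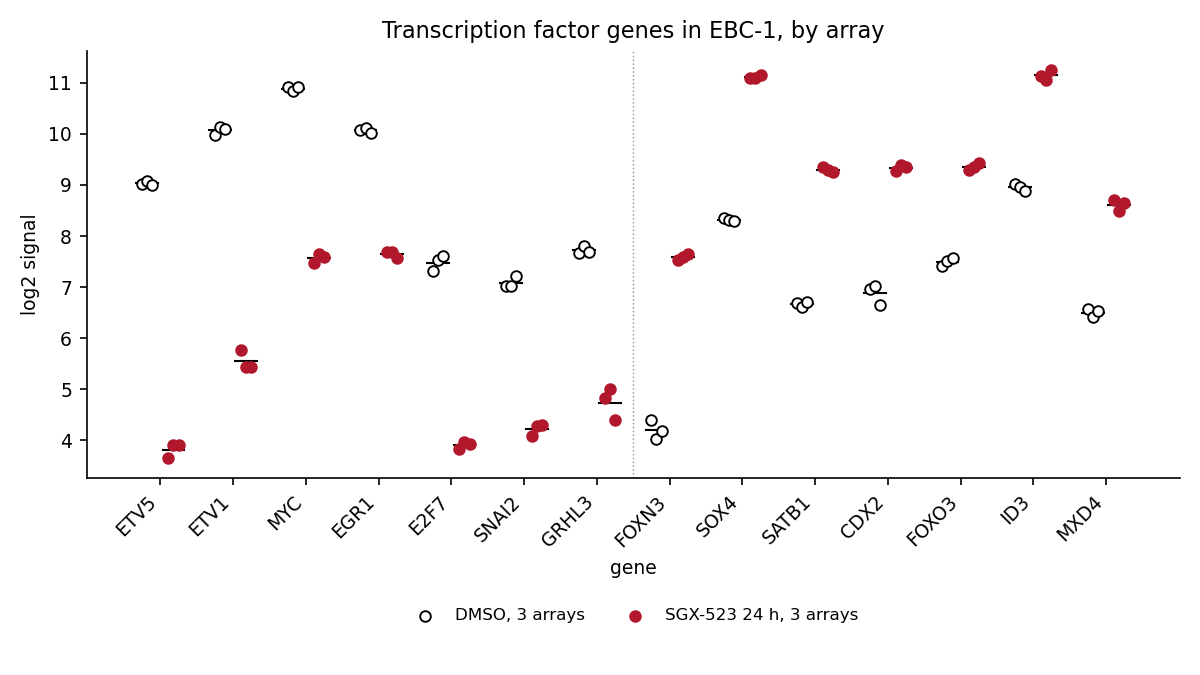
Log2 signal (y axis) of 14 transcription factor genes on each EBC-1 array, open circles for the 3 DMSO arrays and filled circles for the 3 SGX-523 24 h arrays, with short lines at the group means. The 7 genes on the left fell and the 7 on the right rose. In each of the 14 the groups do not overlap, which for all but SNAI2 was a condition of naming the gene. Levels are not comparable between genes.

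Of 375 genes of secreted proteins tested, 42 rose (11.2%) and 25 fell (6.67%) at least 2-fold, or 34 and 33 under the control RNA levelling. The deepest falls were in MMP1, CXCL8 and LIF. Protease inhibitors, complement genes and mucins rose more often than they fell.

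CXCL8, the neutrophil chemokine IL-8, read 7.86, 7.84 and 7.93 in DMSO and 3.64, 4.01 and 3.97 after SGX-523, a difference of -4.002 ± 0.15 (adjusted p = 3.32e-17). LIF, a cytokine of the IL-6 family, went from 10.34, 10.43 and 10.44 to 6.97, 7.08 and 7.03 (-3.38 ± 0.067). The matrix collagenase MMP1 fell from 6.86, 7.05 and 7.13 to 2.60, 2.55 and 2.59. For all 3 genes the groups were more than 3 units apart, and CXCL8 and MMP1 ended below the array median, where no call of detection is given. CXCL1 (-1.36) fell with CXCL8, while CCL15 rose by 1.30.

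Ligands of other receptor kinases fell more often than they rose at 2-fold. EREG, the EGF receptor ligand epiregulin, read 10.70, 10.66 and 10.81 in DMSO and 8.05, 8.38 and 8.37 after SGX-523 (-2.46), and TGFA changed by -1.22; of the 6 EGF family ligands tested 2 fell and NRG4, a ligand of ERBB4, rose by 1.05. PDGFA went from 10.19, 10.24 and 10.16 to 7.88, 8.02 and 8.05. PDGFC (-1.80) and CCN1, a matricellular target of YAP (-2.29), fell as well. Of 35 ligands and binding proteins in that family list 5 fell and 2 rose: GRN, progranulin (2.08), and the insulin-like growth factor binding protein IGFBP3, from 10.46, 10.30 and 10.34 to 12.12, 12.20 and 12.19. In the TGF-beta group the BMP antagonist NOG (-2.40) and the stress cytokine GDF15 (-1.83) fell. The urokinase receptor PLAUR changed by -1.68, and the metalloproteinase inhibitor TIMP2 by 1.41.

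Protease inhibitors rose in 7 of 38 and fell in 1, or in 6 and 3 under the control RNA levelling. CSTA, the cysteine protease inhibitor cystatin A, read 2.99, 3.16 and 3.16 in DMSO, under the array median, and 6.21, 6.17 and 6.01 after SGX-523. SPINK1 (2.41) and the broad inhibitor A2M (1.64) rose too, also from under the array median, and SERPINB5 rose by 1.52. A2M reached only 5.10 after SGX-523, near the array medians. Lysosomal and secreted proteases rose in 9 of 47 and fell in 1, with CTSF (2.62), CTSS (1.97) and CTSO (1.83) up and CTSL (-1.16) down. Complement and acute phase genes rose in 5 of 30 and fell in none. CFB, complement factor B, went from 7.90, 7.96 and 7.86 to 10.95, 10.94 and 10.92, and CFD, factor D of the same alternative pathway, rose by 1.90. SELENOP, the selenium carrier, moved from 7.76, 7.64 and 7.91 to 11.39, 11.39 and 11.43. Neither CFB nor SELENOP overlapped between the groups, which was a condition of naming them.

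Of 18 mucin and airway secretory genes 5 rose and none fell at least 2-fold. MUC13, a transmembrane mucin of gut epithelium, read 7.04, 7.33 and 7.41 in DMSO and 10.17, 10.27 and 10.21 after SGX-523 (2.96 ± 0.15). MUC1 rose by 1.60, with its lowest probe set at -0.09, and lysozyme, LYZ, by 2.22 from a level below the array median. S100 proteins and annexins went the other way, with 4 of 23 falling and 2 rising; ANXA10, an annexin of gastric epithelium, fell by 2.39, and S100P rose by 1.86. Among 62 matrix genes the laminin chains moved apart, with LAMA2 at -2.01, LAMB1 at -1.48 and LAMB2 at 1.65. LOXL4, a collagen cross-linking enzyme, and LUM rose by 2.44 and 1.77.

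Surface genes rose in 75 of 751 (9.99%) and fell in 46 (6.13%) at least 2-fold, a balance that turned to 48 and 82 under the control RNA levelling. Among receptor kinases ERBB3, IGF1R and INSR rose, EPHA2 fell, and MET itself differed by -0.48.

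MET, the target of the inhibitor, read 12.83, 12.75 and 12.85 in DMSO and 12.36, 12.31 and 12.33 after SGX-523. The difference was -0.48 ± 0.14 (adjusted p = 0.00552), and each treated array lay below each DMSO array. ERBB3, the kinase-poor partner of ERBB2 that couples to PI3K, read 7.52, 7.51 and 7.47 in DMSO and 11.03, 10.997 and 10.94 after SGX-523, a rise of 3.49 ± 0.088 (adjusted p = 1.14e-20). The insulin-like growth factor receptor IGF1R went from 4.26, 4.41 and 4.82 to 6.85, 7.12 and 7.12, and the insulin receptor INSR from 7.50, 7.64 and 7.46 to 9.40, 9.48 and 9.59. Groups were separate for all 3 receptors, which for ERBB3 was a condition of naming it. The lowest of 4 IGF1R probe sets changed by 0.037 only. Of 26 receptor kinases, listed apart from the ephrin receptors, those 3 rose and FGFR1 (-1.10) fell at least 2-fold. EPHA2, an ephrin receptor, fell from 9.48, 9.47 and 9.54 to 6.01, 5.84 and 5.95 (-3.56 ± 0.074). Its ligand EFNA1 rose by 2.52, and EFNB2 changed by -1.25.

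Of 26 tight and gap junction genes 7 rose and 1 fell at least 2-fold, and the median was 0.30; under the control RNA levelling 5 rose and 4 fell, with a median of -0.016. CLDN4, a claudin, read 9.67, 9.65 and 9.78 in DMSO and 11.57, 11.47 and 11.43 after SGX-523, and CLDN7 went from 8.15, 8.26 and 8.30 to 9.88, 9.90 and 9.94. CLDN3 (2.02) and occludin, OCLN (1.79), were also higher on every treated array, whereas the gap junction protein GJA1 fell by 2.44. Tetraspanins and TM4SF proteins, which organise membrane domains, rose in 7 of 29 and fell in 1, or in 5 and 3 under the control RNA levelling. TSPAN1 stood at 7.48, 7.49 and 7.51 in DMSO and 10.78, 10.71 and 10.73 after SGX-523, and TM4SF20 (2.82), TSPAN12 (2.21) and TSPAN8 (1.87) rose. Integrins fell more often, in 3 of 16 (ITGB5 (-1.35), ITGA2 (-1.18) and ITGA6 (-1.12)), with ITGA7 up by 1.95. Brush border cadherins CDHR5 (1.34) and CDHR2 (1.31) rose.

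CEACAM6, a carcinoembryonic antigen family adhesion protein, read 11.46, 11.44 and 11.57 in DMSO and 7.50, 7.37 and 7.56 after SGX-523, a fall of 4.01. TNFRSF12A, the receptor for TWEAK, went from 9.94, 9.85 and 9.89 to 5.96, 6.09 and 5.80. LRP8, an apolipoprotein E and reelin receptor, went from 9.63, 9.64 and 9.60 to 6.62, 6.17 and 6.64. No array of one group reached the other in these 3 genes, which was a condition of naming them. The Notch ligand JAG1 (-1.88), the syndecan SDC1 (-1.86) and the nucleotide receptor P2RY2 (-2.27) fell. So did SEMA3D (-3.37), a secreted semaphorin whose family list was counted with the surface genes. Of 92 G protein-coupled receptors 7 fell and 3 rose, and the falls were near their share among all genes (8.16%). Among immune ligands 6 of 23 rose and none fell, or 5 rose and 3 fell under the control RNA levelling. The butyrophilins BTN3A3 (2.13), BTN3A2 (2.02) and BTN3A1 (1.39) are near-identical copies whose probe sets may share signal. TLR3, a sensor of double-stranded RNA, rose by 2.03, and the TRAIL receptor TNFRSF10A fell by 1.57. Their list of TNF, interleukin and related receptors gave 3 rises and 2 falls of 55, a balance that turned to 3 and 7 under the control RNA levelling.

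**Figure D3:**
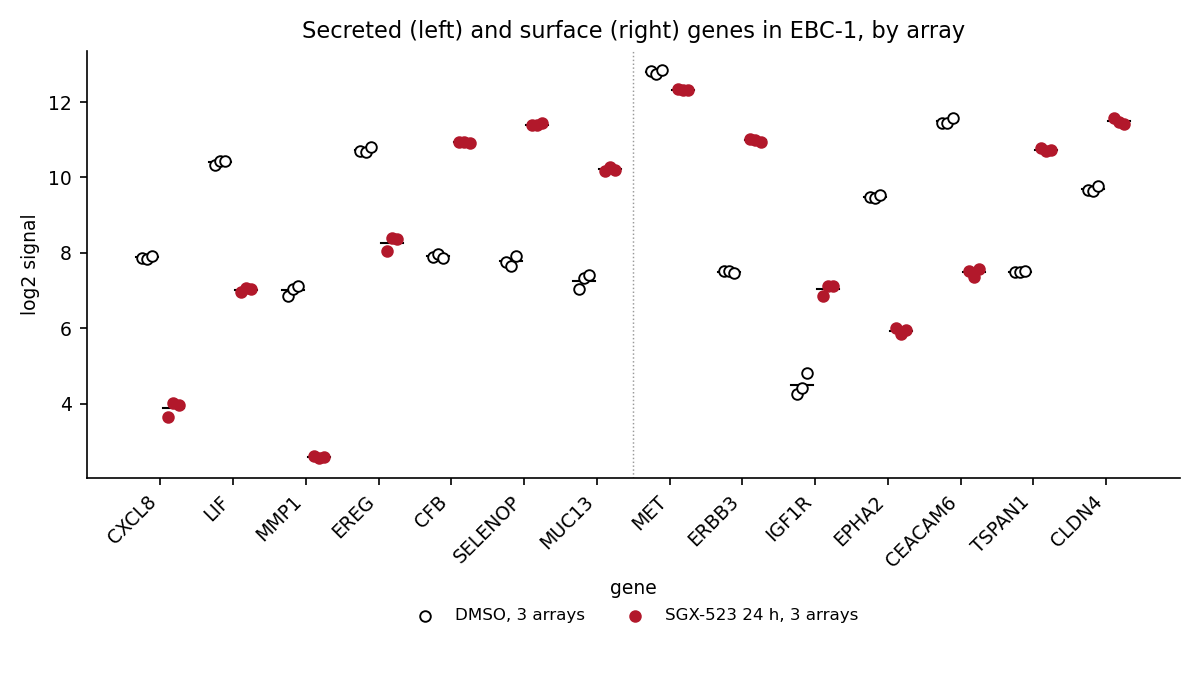
Log2 signal (y axis) of 7 secreted and 7 surface genes on each EBC-1 array, open circles for DMSO and filled circles for SGX-523 24 h, with lines at the group means. CXCL8, MMP1, LIF, EPHA2 and CEACAM6 stand lower on the SGX-523 arrays and ERBB3, MUC13, CFB and TSPAN1 higher, while MET differs by -0.48.

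ANO1, a calcium-activated chloride channel, read 8.45, 8.44 and 8.54 in DMSO and 5.32, 5.42 and 5.28 after SGX-523. The weakest of its 3 kept probe sets changed by -0.235 only. The potassium channel KCNJ13 rose by 2.38. Over 108 channels 10 rose and 5 fell (all genes, 7.71% and 8.16%), counts that turned to 4 and 7 under the control RNA levelling. Of 41 amino acid transporters 4 fell, near the share among all genes (8.16%), and none rose. SLC7A1, the arginine and lysine carrier, went from 7.86, 7.87 and 8.03 to 5.97, 5.72 and 5.96. SLC7A5, the leucine exchanger (-1.27), SLC7A11, the cystine exchanger (-1.24), and SLC38A1, a glutamine carrier (-1.16), were the others. The glucose transporter SLC2A1 read 9.36, 9.37 and 9.32 in DMSO and 7.81, 7.95 and 7.80 after SGX-523, and the folate carrier SLC19A1 fell by 1.46. Some exporters rose. ABCA1, which moves cholesterol to apolipoproteins, went from 4.81, 4.93 and 5.01 to 9.09, 9.11 and 9.07, and SLC40A1, the iron exporter ferroportin, from 5.30, 5.10 and 5.26 to 7.85, 7.97 and 8.02. The groups of both were separate, which was a condition of naming them. ABCA5 (2.72), ABCC5 (1.92), the organic anion carrier SLCO2B1 (2.67) and the choline carrier SLC44A1 (2.03) rose as well. The 29 ABC transporters gave 4 rises and 3 falls, or 4 and 5 under the control RNA levelling.

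Of 783 metabolic genes 78 rose (9.96%) and 79 fell (10.1%) at least 2-fold, or 51 and 120 under the control RNA levelling, and the balance differed by list. Nucleotide, one-carbon and polyamine synthesis had more falls than rises, and the oxidoreductases and transferases of drug, steroid and prostaglandin metabolism had more rises than falls. Glycolysis, not described further, had 8 falls and 1 rise of 27.

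Pyrimidine and deoxynucleotide synthesis lost 12 of 27 genes at least 2-fold with no rise, and its median was -0.83. CTPS1, which makes CTP from UTP, read 9.24, 9.27 and 9.32 in DMSO and 5.06, 5.11 and 5.25 after SGX-523, a fall of 4.13 ± 0.073. Its paralog CTPS2 measured 0.79. Thymidylate synthase, TYMS, went from 11.85, 11.84 and 11.95 to 8.69, 8.73 and 8.73, and thymidine kinase TK1 from 10.32, 10.35 and 10.18 to 7.73, 7.64 and 7.64. The list overlaps the cell cycle: RRM2 (-6.0), the small subunit of ribonucleotide reductase and the deepest measured fall, TYMS and TK1 are all S phase genes. RRM2 read 4.60, 4.89 and 4.69 after SGX-523, below the array medians. CAD (-1.99), which starts pyrimidine synthesis, fell as well. Purine synthesis and salvage lost 8 of 22, again with no rise, and a median of -0.56. PFAS and PAICS, enzymes of the de novo pathway, went from 8.41, 8.39 and 8.42 to 6.23, 6.26 and 6.25 and from 10.50, 10.46 and 10.46 to 8.63, 8.63 and 8.56. PRPS1, which makes the ribose precursor (-1.73), and the mitochondrial adenylate kinase AK4 (-2.69) were lower too.

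In serine, glycine, folate and methionine metabolism 6 of 25 fell and none rose at least 2-fold. PSAT1, the serine synthesis transaminase, read 10.64, 10.61 and 10.74 in DMSO and 7.52, 7.73 and 7.58 after SGX-523 (-3.05 ± 0.073), and the mitochondrial folate enzymes MTHFD1L (-1.94) and MTHFD2 (-1.15) fell. In polyamine metabolism the synthetic enzymes ornithine decarboxylase, ODC1 (from 10.99, 11.05 and 11.03 to 9.39, 9.37 and 9.34), spermidine synthase SRM (-1.98) and AMD1 (-1.54) fell, and the catabolic SAT1 (from 10.88, 10.90 and 10.96 to 11.99, 12.06 and 12.14), SAT2 (1.47) and PAOX (1.17) rose, 6 falls and 3 rises of 20 in all. In arginine metabolism ASS1, argininosuccinate synthase, rose by 2.03, while ASNS (-1.24) and PYCR1 (-1.18) fell.

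PDK4, the kinase that shuts off pyruvate dehydrogenase, read 9.58, 9.68 and 9.76 in DMSO and 11.96, 11.99 and 12.06 after SGX-523, and PDK2 rose by 1.30, while PDK1 (-1.12), PDK3 (-1.40) and the tricarboxylic acid cycle enzyme IDH3A (-1.49) fell. Of 34 genes of pyruvate oxidation and the cycle 4 fell and 2 rose, with a median of -0.30. Breakdown of branched-chain amino acids gave 3 rises and no fall of 21 at least 2-fold, with a median of 0.40. Under the control RNA levelling 1 rose and none fell, with a median of 0.081. At any size 13 were called higher (all genes, 31.2%) and 1 lower (28.1%) before that levelling. Fatty acid oxidation and peroxisomal genes had 33 of 51 called higher at any size (all genes, 31.2%) and 8 lower (28.1%), yet 2 rose and 2 fell at least 2-fold, and under the control RNA levelling the 2-fold counts were 1 and 4. Its largest changes were PEX11A at 1.33 and ACOX2 at -2.26. CROT had probe sets called in opposite directions and is not given a direction. Sphingolipid genes rose in 6 of 45 and fell in 1, or in 3 and 2 under the control RNA levelling, led by SMPDL3A (2.09), KDSR (1.82) and the acid ceramidase ASAH1 (1.49).

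Cytochromes P450, UDP-glucuronosyltransferases, sulfotransferases and reductases rose in 21 of 82 and fell in none at least 2-fold, or in 15 and 3 under the control RNA levelling. AKR1C2, a steroid and prostaglandin reductase, read 8.90, 8.86 and 8.71 in DMSO and 12.22, 12.24 and 12.36 after SGX-523, and CYP4F3, a leukotriene hydroxylase, went from 4.76, 4.27 and 4.74 to 7.76, 7.71 and 7.71. UGT2B15 rose by 3.08. The AKR1C and UGT2B genes are close copies, so their shares of the signal are uncertain; the 2 AKR1C2 probe sets gave 0.93 and 3.45. Glutathione S-transferases rose with them: GSTA1 read 2.89, 2.77 and 2.75 in DMSO, below the array median, and 7.03, 6.83 and 7.41 after SGX-523, and GSTA4 rose by 2.19. GSTA1 and GSTA2 (3.12) share sequence in the same way. CHAC2, which degrades glutathione, fell by 3.20, glutathione synthetase, GSS, by 1.28 and the glutaredoxin GLRX by 1.43. The 56 genes of that list had 9 rises and 9 falls, or 8 and 13 under the control RNA levelling.

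HPGD, the dehydrogenase that inactivates prostaglandin E2 and the largest rise over all genes, read 6.26, 6.04 and 6.04 in DMSO and 10.45, 10.49 and 10.49 after SGX-523, and all 8 of its kept probe sets lay between 3.71 and 4.42. PTGDS, prostaglandin D synthase, went from 7.43, 7.21 and 7.21 to 9.71, 9.82 and 9.65. The other prostaglandin genes that rose at least 2-fold were AKR1C3 (1.78) and PTGES, a prostaglandin E synthase (1.15). In iron handling CYBRD1, a ferric reductase, read 8.15, 8.35 and 8.32 in DMSO and 11.27, 11.21 and 11.28 after SGX-523, ferroportin rose as given for SLC40A1, and the transferrin receptor TFRC fell by 0.81. The iron and heme list gave 2 rises and 1 fall of 32, which turned to 2 and 3 under the control RNA levelling. In NAD metabolism BST1, an ectoenzyme that consumes NAD, went from 4.77, 4.91 and 4.87 to 7.54, 7.62 and 7.95, and NAPRT, which makes NAD from nicotinic acid, rose by 1.22.

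**Figure D4:**
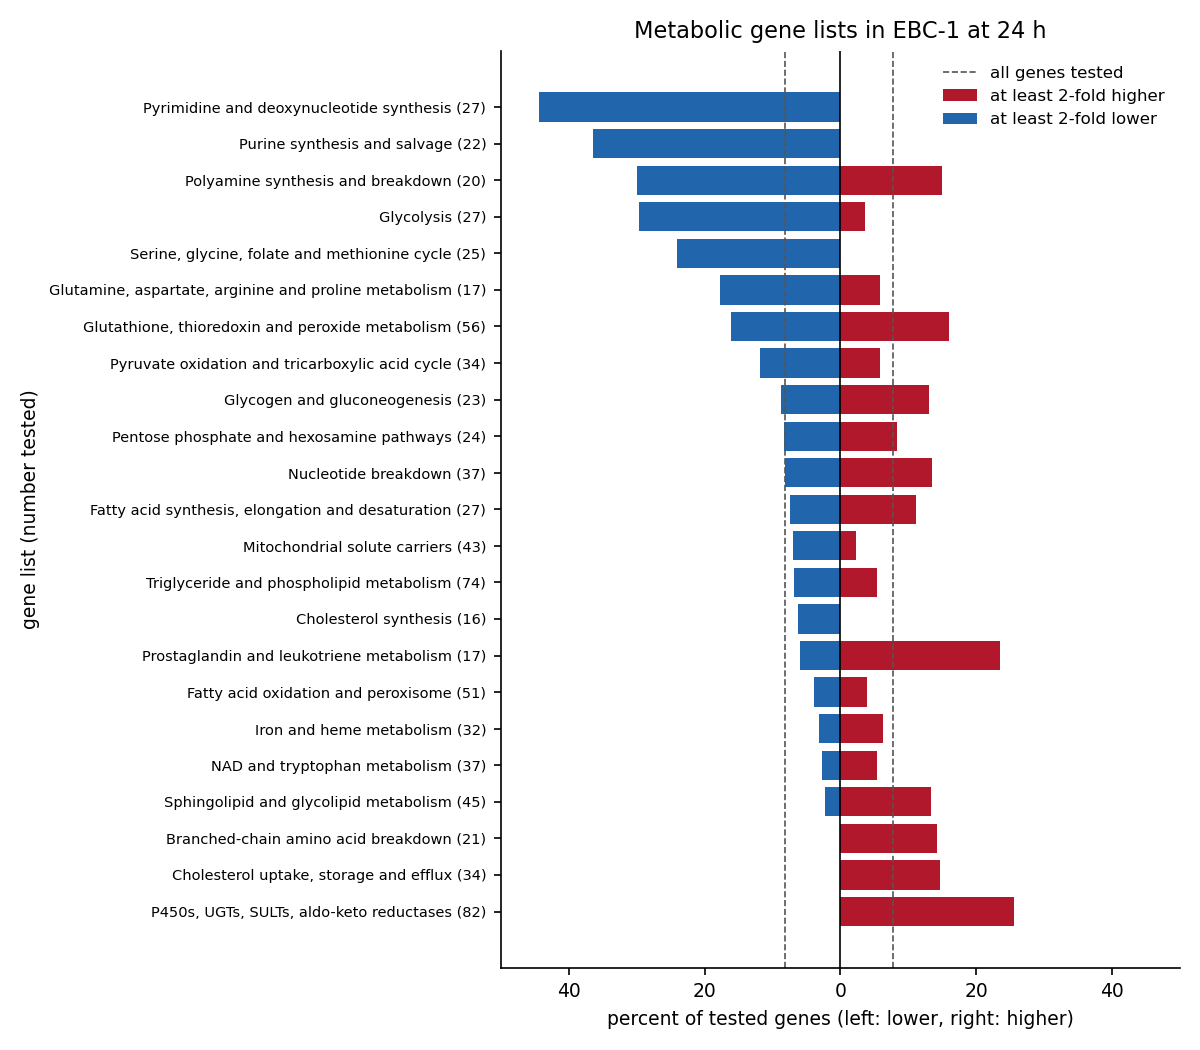
For each of the metabolic gene lists, the percent of its tested genes that passed limma's test and were at least 2-fold higher (bars to the right) or lower (bars to the left) after 24 h of SGX-523 in EBC-1, with the number tested in brackets. Dashed lines mark the same percents over all genes, 7.71 and 8.16; pyrimidine synthesis has the longest bar to the left, 12 of 27. Under the control RNA levelling no list has more rises or fewer falls than shown, and nucleotide breakdown turns from 5 rises and 3 falls to 2 and 5, iron and heme metabolism from 2 and 1 to 2 and 3, and cholesterol uptake from 5 and 0 to 3 and 3.

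In HCC827, whose group holds the array that stood apart, limma called 4 genes at 24 h (0.0323%), and 2613 had an unadjusted p under 0.05 (21.1%). The difference between the EBC-1 and HCC827 responses passed for 6390 genes (51.6%), 28.2% of all genes with the EBC-1 difference higher and 23.4% lower. It passed in the same direction for 953 of the 955 2-fold rises and 1007 of the 1011 2-fold falls of EBC-1. These genes were chosen by the EBC-1 difference that the comparison itself contains, so such agreement is largely built in. The median HCC827 differences over the rises and the falls were 0.00055 and -0.080. ETV5 differed by -5.22 in EBC-1 and -0.11 in HCC827, CXCL8 by -4.002 and -0.012, FOXN3 by 3.39 and 0.14, and HPGD by 4.37 and 0.11.

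In MKN-45, the other line that depends on MET, limma called 7469 genes (60.3%) at 24 h. The EBC-1 and MKN-45 responses differed for 5217 genes (42.1%). Of the 955 rises in EBC-1, 735 were called higher in MKN-45 as well (all genes, 33.4%) and 60 lower (26.9%), and the median MKN-45 difference over the 955 was 0.86. Of the 1011 falls, 883 were called lower in MKN-45 and 45 higher, with a median of -1.05. Some of the largest EBC-1 changes had a counterpart of like size: ETV5 measured -5.23, TNFSF10, the death ligand TRAIL, 3.22 (EBC-1 3.71) and ABCA1 3.60 in MKN-45. Others did not. HPGD rose by 4.37 in EBC-1 and measured 0.61 in MKN-45, a difference of 3.75 between the lines. SEMA3D and ANO1 measured -0.046 and -0.11 in MKN-45, with differences of -3.32 and -3.03. PDGFA fell by 2.21 in EBC-1 and rose by 2.37 in MKN-45, and MUC13 measured 2.96 in EBC-1 and -1.50 in MKN-45. FOS, which did not pass the test in EBC-1, fell by 6.77 in MKN-45. Opposite called directions with a called difference were found for 627 of the 12386 genes tested.

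**Figure D5:**
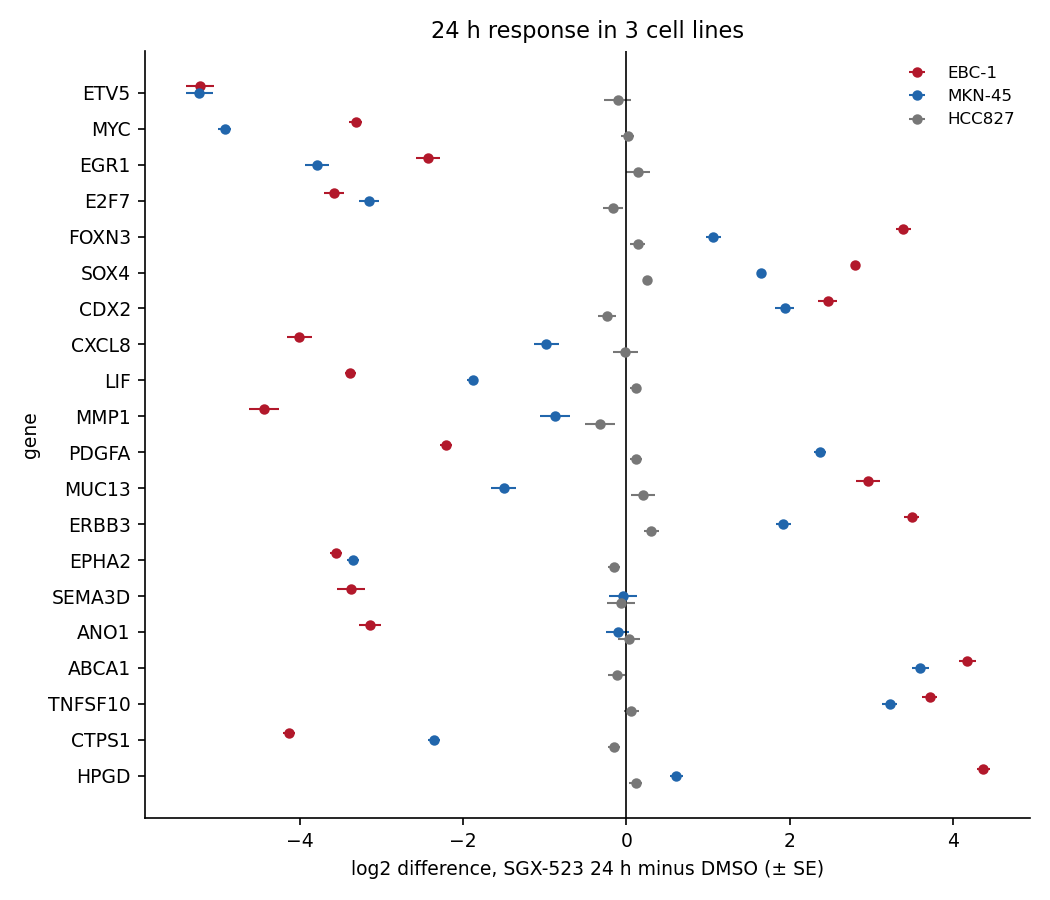
Log2 difference after 24 h of SGX-523 (x axis, ± SE from limma, 3 against 3 arrays) of 20 genes in EBC-1, MKN-45 and HCC827. HCC827 points lie near 0, MKN-45 points follow EBC-1 for ETV5, ABCA1 and TNFSF10, and lie on the other side of 0 for PDGFA and MUC13.

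By 48 h most 24 h levels had not moved past the test: the direct comparison of 48 h with 24 h, which uses no DMSO array, called 1371 genes (11.1%), 618 higher (4.99%) and 753 lower (6.08%), of which 25 (0.202%) and 46 (0.371%) differed at least 2-fold. Without the HCC827 array that stood apart it called 2972. Of the 955 rises 143 moved further and 49 moved back, and of the 1011 falls 198 moved further and 67 back. The surface hyaluronan receptor CD44 went on falling, with a difference of -0.72 at 24 h from DMSO and -1.83 at 48 h from 24 h (limma adjusted p = 6.28e-13). The epithelial factor KLF4 measured 0.99 at 24 h and rose by a further 1.15, and S100P rose by 1.86 and a further 1.04. The gut chloride exchanger SLC26A3 likewise rose by 1.69 and a further 0.99. ABCA1 and PTGDS moved part of the way back, with differences of -1.25 and -1.15 at 48 h from 24 h. TK1 fell by a further 1.23 and ANO1 by a further 1.07.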

How the data were processed

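Total RNA was labelled with a 3' expression kit and hybridised to Affymetrix arrays, per the labels' protocols. The deposited values are log2 signals; MAS5 is named in the submitters' processing notes without its role. An offset of 16 planned for linear values was not applied, since the deposited values were already log2. Probe sets reaching their array's median on at least 3 of 27 arrays were kept, and the brightest per gene was used (12386 genes; 44988 of 49395 probe sets name 1 gene, 1832 several, 2473 none). limma 3.58.1 (R 4.3.3; lmFit, eBayes with trend) fitted 9 group means, with 18 residual degrees of freedom and Benjamini-Hochberg adjusted p under 0.05; it was tested on simulated data. Precision is limited by the 3 arrays per group.

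Members and lists were chosen with earlier results of these data known. Genes are named by size. In each direction they are the 20 largest over all genes, the 10 largest per class and the 4 largest called per list. The 5 largest in each direction of each difference between responses and between times are named too. Except for the picks per list, the higher group mean had to lie above the median of tested genes. NATD1, SPC25 and UHRF1, among others, passed through 1 group, with a mean over the 6 arrays below that median. Non-overlapping arrays were required only of the 20 largest over all genes and the 10 largest per class. CAD, FOXA1, FOXO1, GSTA4, HK2, HTR1D, MTHFD2, NR3C1, NT5E and TXNIP, and the printed promoter stretches, were added after values were seen. Some probe sets disagree: AK4, CD44, CTPS2, CYP4F3, E2F7, FOS, FOXL1, FOXP1, HK2, IGF1R, LAMB1, MLXIP, MUC1, NT5E, PAOX, PDGFC, PFAS, PPARA, SLC2A1 and TGFA have a kept probe set with a difference near 0 or of the other sign. The weakest kept probe set was also small in ANO1 (-0.235), ETS1 (0.254), GDF15 (-0.217), JAG1 (-0.228), KLF11 (0.293), PDK2 (0.298) and SLCO2B1 (0.271), among others. Alternatives covered scaling, offset, filter, probe set choice, samples fitted, a replicate block and leaving out arrays. Promoter sequences are from RefSeq. Drawing used matplotlib 3.10.9.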

Additional observations from a re-analysis of the deposited data

Results flagged for a closer look

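For each of the following genes limma called opposite directions in the 2 lines that depend on MET and called the difference between the responses. They are the 5 largest differences in each direction among list members whose higher EBC-1 group mean lay above the median of tested genes, which GRHL3 and HTR1D passed through DMSO although their means over the 6 arrays lie below it. PDGFA measured -2.21 in EBC-1 and 2.37 in MKN-45, a difference of -4.59. HES6, a bHLH factor, measured -0.85 and 3.40 (difference -4.25), and GRHL3 -2.98 and 0.86 (-3.84). The serotonin receptor HTR1D measured -1.23 and 1.48 (-2.71), and the protease inhibitor SERPINE2 -1.19 and 1.14 (-2.33). In the other direction, MUC13 measured 2.96 in EBC-1 and -1.50 in MKN-45 (difference 4.46), the adhesion receptor ADGRF1 0.90 and -3.34 (4.24), and SERPINB5 1.52 and -2.13 (3.64). The ectonucleotidase NT5E measured 0.30 and -3.04 (3.34), but 1 of its 3 kept probe sets was called lower in EBC-1 (-0.62), so it is given no direction there. Hexokinase HK2 measured 0.26 and -3.11 (3.37). The EBC-1 values of NT5E and HK2 are smaller than the shift of the control RNA, and change sign when levelled on it.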

How the results depend on the processing

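Under the control RNA levelling the EBC-1 24 h call count was 7685, 1972 of them higher (25.7%, against 52.6%). Fitted on the EBC-1 arrays alone, the 24 h count was 8278. The 2-fold count of 1966 fell to 1067 with an offset of 64 added to the linear signal. The 48 h against 24 h count of 1371 became 761 under the control RNA levelling, 2829 when fitted on EBC-1 alone and 2972 without the HCC827 24 h replicate 3 array; without that array the 24 h count was 8374. Leaving out a single array of the groups compared, other than that one, gave 6929 to 7008 calls at 24 h, 1949 to 1997 at 2-fold, 6022 to 6767 against HCC827, 4808 to 4897 against MKN-45 and 991 to 1150 for 48 h against 24 h. Replicate numbers did not pair the samples (correlations of deviations -0.041, -0.038 and 0.095), and the fit with the replicate block called 7346 genes at 24 h, 1966 at 2-fold and 1265 for 48 h against 24 h.

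Of the 217 genes named with values, HK2 and NT5E changed direction or call and the others did neither. Under the control RNA levelling HK2 measured -0.056 and NT5E -0.011, and NT5E measured -0.067 as the mean of its probe sets; leaving out single EBC-1 arrays took HK2 (0.24) and NT5E (0.27 to 0.30) above an adjusted p of 0.05, so that they were no longer called. Of 5776 list counts recomputed, 397 moved by more than 1.5 times. The causes were not tested beyond how each setting is built. Arrays limit precision through their number and, for the dim side of the large changes, through signals under the array median.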

Other observations

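Among the 20 largest rises and 20 largest falls over all genes, several lie outside the gene groups described. IRS2, the adaptor that links insulin and IGF receptors to PI3K, read 5.24, 5.31 and 5.69 in DMSO and 8.64, 8.54 and 8.67 after SGX-523, a rise of 3.20 ± 0.10 (limma adjusted p = 1.11e-18), alongside the rises of IGF1R and INSR. KLHL24, an adaptor of a ubiquitin ligase that acts on intermediate filaments, went from 5.49, 5.67 and 5.65 to 9.03, 9.09 and 9.07. GADD45G, a growth arrest gene, went from 5.50, 5.55 and 5.29 to 8.73, 8.73 and 8.86. The groups did not overlap in any of the 3, which was a condition of naming them. N4BP2L1 (3.60), TMEM140 (3.19), TMT1A (3.29) and NATD1 (3.13) were of like size. On the other side, GAL, the neuropeptide galanin, fell from 7.66, 7.60 and 7.63 to 3.15, 3.58 and 3.59, and DUSP4, a phosphatase of ERK and other MAP kinases, from 10.38, 10.29 and 10.26 to 6.06, 6.03 and 6.18. The keratin pair of simple epithelium fell with them, KRT18 by 1.34 and KRT8 by 1.13.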
